A study of Homo sapiens with 2 samples.

Results

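The genes described here are 48 human genes of protein folding and quality control in the endoplasmic reticulum (ER). The data are the positions called as crosslinking sites of the RNA-binding protein RBMS3 on their transcripts. The genes were chosen by name, with earlier results of these data known. Every site of the pooled RBMS3 site list that lay on the strand of one of these genes was assigned to it, and a gene with no such site counts as having none. They are 48 of 20046 protein-coding genes of the GENCODE release 44 annotation of hg38, and 354 of the 27706 sites of the list lay in them. FLAG-tagged RBMS3 was expressed stably from a lentiviral vector, with the tag at the N terminus, in MDA-MB-231, a human breast cancer cell line, and its bound RNA was mapped by CLIP-seq in 2 biological replicates that form the only group. One of the replicates is called MDA-MB-231 in its title and MDA-MB-232 in its cell line label. The study asked where RBMS3 binds, and the list holds the tags of both replicates pooled, so no value below has a replicate error and no control library enters any value. The tagged protein was added to the cells, so the sites are those of RBMS3 at the level this vector gave. A site list holds no expression level, and the identity of the cells was therefore not checked against marker genes.

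Proteins that enter the secretory pathway cross the ER membrane through the Sec61 translocon, lose their signal peptide to the signal peptidase and are folded by chaperones of the HSP70 and HSP90 families, by the lectins calnexin and calreticulin and by protein disulfide isomerases. Proteins that fail to fold are returned to the cytosol and degraded, and a load of unfolded protein switches on the unfolded protein response, whose transcription factors raise the genes of this machinery. RBMS3 is a protein with RNA recognition motifs that binds AU-rich RNA, and the 3′UTR, the untranslated stretch between the stop codon and the poly(A) tail, is where many proteins that set the stability of an mRNA bind.

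Each site is a base at which tags, the unique sequenced fragments, carried a deletion that the authors called as crosslinking-induced. Its height is given as the number of tags with the deletion, and the deletion percentage is that number over all tags that cover the base. Sites within 50 nt of each other were joined into a cluster, which is represented by its site with the most deletions. The strongest site of each gene with leading values is shown first because the positions below are read from it. The 29 genomic bases run 5′ to 3′ on the transcript strand with the deleted base as the 15th base, and are reference sequence of hg38. In the first set the capitals mark the poly(A) signal AATAAA or its common variant ATTAAA, and the order follows the number of deletions.
TXNDC12: gtaccattaaactttAATAAAactttaaa
KDELR2: aaatATTAAAgtgttgaatactaacagtg
HERPUD1: tctgttcAATAAAgttttactatgaatga
DNAJC3: cgtgtattttcacatttAATAAAaatatt
SEC62: tctaaaatatcaaatttaaAATAAAgata

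The windows of these 5 sites were chr1:52020137-52020165 on the minus strand for TXNDC12, chr7:6461755-6461783 on the minus strand for KDELR2, chr16:56943848-56943876 on the plus strand for HERPUD1, chr13:95794944-95794972 on the plus strand for DNAJC3 and chr3:169994134-169994162 on the plus strand for SEC62. The strongest sites of 4 other leading genes held neither form of the signal in their 29 bases, and the deleted base alone is in capitals.
SSR1: gagaataatgtgttCataaagcatggatc
CALU: gaccatggcttaccTttcctgcctttgac
CANX: cctttccagggttaTttagtaaagtttgt
XBP1: gtgctttctccattTatttaaaactaccc

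These windows were chr6:7287574-7287602 on the minus strand for SSR1, chr7:128770506-128770534 on the plus strand for CALU, chr5:179730616-179730644 on the plus strand for CANX and chr22:28794583-28794611 on the minus strand for XBP1. All 9 strongest sites lay in a 3′UTR of their gene. The deleted base was T in 8 of the 9 and C in SSR1.

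RBMS3 sites lay in 45 of the 48 ER genes (93.8%), against 37.6% of all protein-coding genes. Because the genes were chosen with earlier results of these data known, the comparisons in this paragraph describe the list and test nothing. A 3′UTR site was found in 44 of the 48 (91.7%), against 31.8% of all protein-coding genes. SDF2L1, KDELR3 and SEC61G had no site, and OS9 had 1 site, in an intron. Their annotated 3′UTRs were 124 nt for SDF2L1, 161 nt for SEC61G and 1023 nt for KDELR3 over all transcripts, while SSR4 with 66 nt and SEC61B with 191 nt each had 2 sites. Of the 44 genes with a 3′UTR site, 25 (56.8%) had 2 or more clusters there, against 36% of all genes with a 3′UTR site. The strongest site carried 100 or more deletions in 34 of the 45 genes with a site (75.6%), against 37.7% of all genes with a site.

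Depth went the same way as these counts. The deepest site of an ER gene was covered by a median of 9574 tags over the 45 genes with a site, against 2561.5 over all 7542 such genes. The strongest site had a median of 205 deletions (95% order-statistic interval 160 to 311), against 70 (69 to 73) over all. Over genes with a 3′UTR site, the median annotated 3′UTR length was 3516.5 nt (1990 to 4323 nt), against 2675 nt (2610 to 2744 nt). The interval of the ER genes holds the median over all, so a difference in length is not shown. Abundant transcripts give more tags at equal binding, no expression level was analysed here, and binding and abundance cannot be told apart in these counts.

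**Figure D1:**
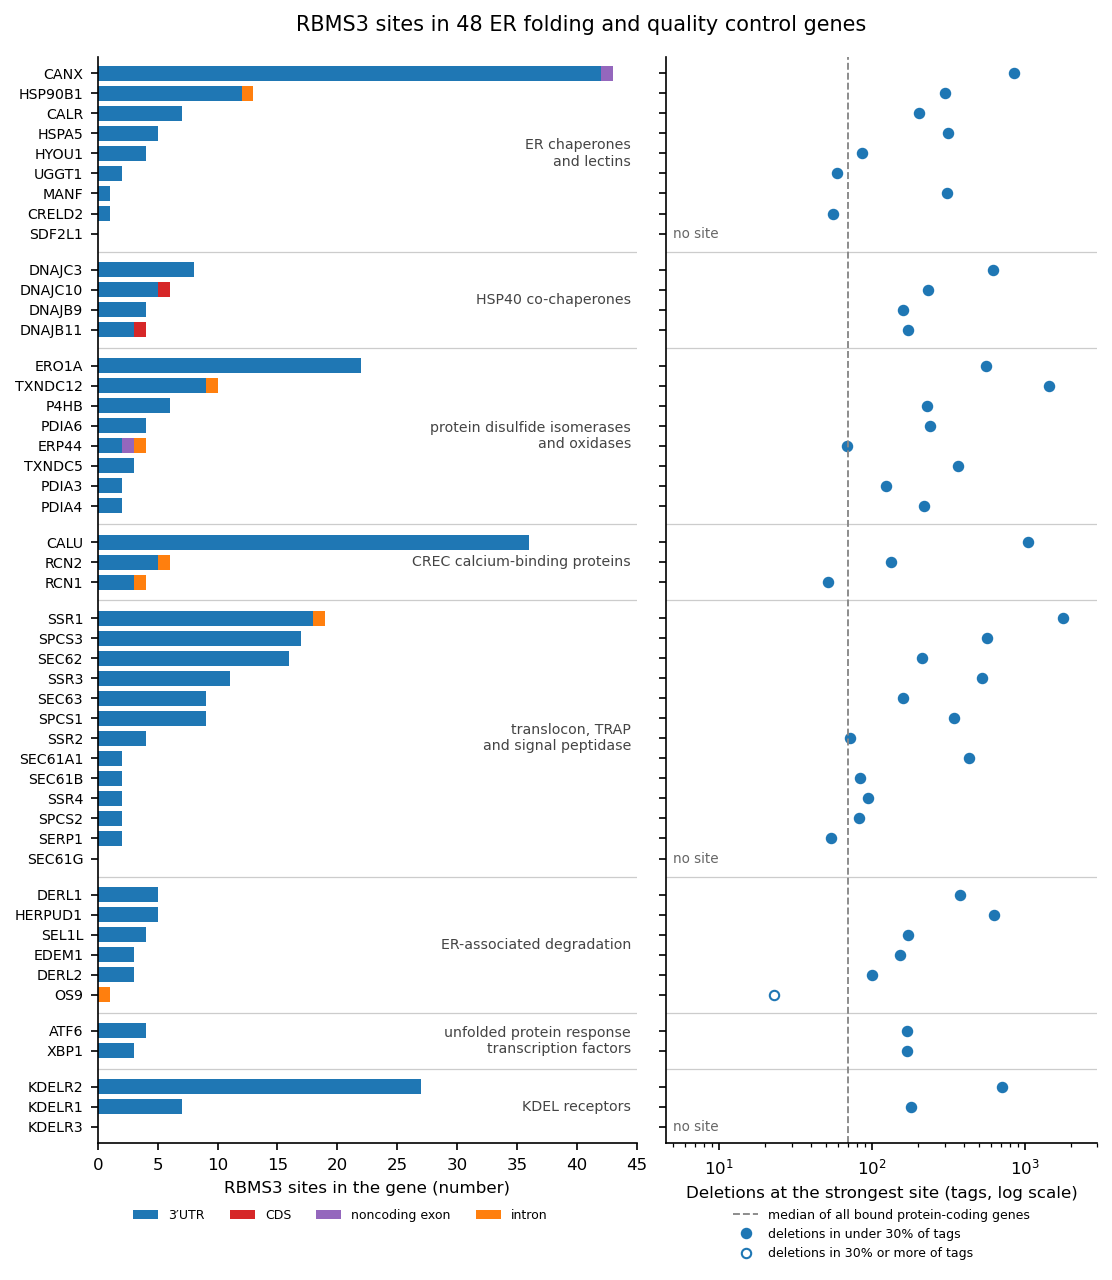
Left, the number of RBMS3 sites in each of the 48 genes, stacked by the region of the gene and grouped by role; right, the number of tags with the deletion at the gene's strongest site on a log scale, with a dashed line at 70, the median of all protein-coding genes with a site. CANX leads the site counts with 43 and SSR1 the strongest sites with 1786 deletions, 3 genes have no site, and OS9 is the gene whose strongest site has deletions in 30% or more of its tags (open circle).

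Of the 354 sites, 343 (96.9%, 95% Wilson interval 94.5 to 98.3%) lay in a 3′UTR of at least 1 transcript, against 84.7% of the sites in all protein-coding genes. Another 7 lay in introns, 2 in coding sequence (in DNAJC10 and DNAJB11), 2 in exons of noncoding transcripts (in CANX and ERP44) and 0 in a 5′UTR. All such intervals cover counting error only. The 354 sites fell into 125 clusters. Of the 354, 40 also lay in another gene annotated on the same strand, 27 of them those of KDELR2. The sites were spread unevenly, since 10 genes had 10 or more sites and 3 genes (MANF, CRELD2 and OS9) had exactly 1. These gene counts were not made over all genes. The median per gene with a site was 4 sites (4 to 6), against 2 over all.

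Among chaperones and lectins, 8 of 9 genes had a 3′UTR site, and CANX stood first. CANX encodes calnexin, the membrane-bound lectin that holds monoglucosylated glycoproteins for folding. It had 43 sites in 11 clusters, 10 of them in a 3′UTR, and 3 sites with deletions in 30% or more of the tags. Its strongest site carried 851 deletions in 29894 tags (2.85%), 289 nt upstream of an annotated transcript end and 1011 nt upstream of the end of the representative transcript. The 8 sites of that cluster held 2311 deletions in all. The next cluster downstream held 13 sites, its strongest with 372 deletions in 25348 tags, 42 nt from an annotated end. The cluster upstream held 8 sites, led by 448 deletions in 15636 tags at 1235 nt from the representative end. The last cluster, 33 nt from the representative end, had 76 deletions in 3026 tags. Deletions of CANX were thus most numerous at internal positions of the 3′UTR and fewer at its outermost end.

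The other chaperones had their sites in few clusters. HSP90B1, the ER member of the HSP90 family, had 13 sites, the strongest with 303 deletions in 51805 tags (0.585%) 8 nt from an end. CALR, the soluble lectin calreticulin, had 7 sites in 1 cluster, with 205 deletions in 50547 tags (0.406%) 26 nt from an end. Both were among the deepest sites, with the lowest percentages at the strongest site of any of the 45 genes. HSPA5, the ER HSP70 protein also known as BiP, differed in position. Its strongest site had 314 deletions in 12228 tags (2.57%) and lay 1395 nt upstream of the nearest annotated end. MANF, a secreted ER stress protein, had a single site with 311 deletions in 3847 tags (8.08%), 33 nt from an end. HYOU1, an HSP70-related chaperone, UGGT1, the glucosyltransferase that marks unfolded glycoproteins, and CRELD2 had strongest sites of 86, 59 and 56 deletions.

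All 4 HSP40 co-chaperones, which deliver clients to BiP and stimulate its ATPase, had 3′UTR sites. DNAJC3 (also called p58IPK) led with 618 deletions in 28260 tags (2.19%), 30 nt from its transcript end. The 6 sites of that cluster held 1969 deletions, and AATAAA began 3 nt after the deleted base of the strongest site. DNAJC3 had 1 low site of another kind, 7 deletions in 7 tags, 1810 nt upstream of the end. DNAJC10, which is also a disulfide reductase, had 234 deletions in 5575 tags at its strongest site, 15971 nt from the nearest annotated end downstream. DNAJB11 and DNAJB9 had strongest sites of 173 and 160 deletions, the first at the last base of a transcript and the other 369 nt upstream of an end.

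All 8 protein disulfide isomerases and oxidases had a 3′UTR site, and their strongest sites ranged from 69 to 1446 deletions with a median of 236. TXNDC12, a thioredoxin-fold protein of the ER lumen also called ERp18, had 9 sites in 1 cluster at its transcript end. Of these 9, 5 also lie in the 3′UTR of another gene on the same strand, but the strongest does not. The strongest TXNDC12 site carried 1446 deletions in 28478 tags (5.08%, 95% Wilson interval 4.83 to 5.34%), 20 nt from the end, and the signal AATAAA began at the next base. The other 8 sites of the cluster had between 48 and 121 deletions, so 1 base held most of the deletions. ERO1A, the oxidase that reoxidises protein disulfide isomerase, had 22 sites in 4 clusters, the strongest with 555 deletions in 22710 tags (2.44%) 166 nt from an end. TXNDC5 had 368 deletions in 24820 tags 25 nt from an end, PDIA6 had 242, P4HB, the founding protein disulfide isomerase, 230, PDIA4 218 and PDIA3 123. The strongest sites of these 5 genes all lay within 34 nt of a transcript end. All 3 sites of TXNDC5 also lie in the 3′UTR of BLOC1S5-TXNDC5, annotated on the same strand. ERP44, which retrieves oxidases and unassembled proteins from the Golgi, was the lowest, with 69 deletions in 1794 tags, 1974 nt from an end.

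The CREC proteins are calcium-binding proteins with EF hands. CALU, which encodes calumenin, had 36 sites in 10 clusters, all in the 3′UTR, against 6 sites in RCN2 and 4 in RCN1. The strongest CALU site had 1052 deletions in 53316 tags (1.97%), 957 nt upstream of the nearest annotated end and 2880 nt upstream of the representative end. The 14 sites of its cluster held 4608 deletions, more than any other cluster of the 48 genes. The genome had a run of 15 A within 100 nt downstream of this cluster's strongest site. Captured RNA was primed with oligo(dT), which can also prime on such a run, and its part in the result was not tested. CALU clusters at annotated ends were lower, with 282 deletions in 22104 tags 28 nt from an internal end and 95 in 3300 tags 8 nt from the representative end. RCN2 had 134 deletions in 3369 tags 4 nt from an end, and RCN1 had 52 in 345 tags (15.1%) 792 nt from an end.

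Of 13 genes of the translocon, the translocon-associated protein complex (TRAP) and the signal peptidase, 12 had a 3′UTR site. SSR1, which encodes TRAP alpha, held the strongest site of all 48 genes and ranked 31 among all 7542 genes with a site. The site had 1786 deletions in 42423 tags (4.21%, 95% Wilson interval 4.02 to 4.41%). It lay 18 nt from an annotated end that is internal, 6445 nt upstream of the end of the representative transcript, whose 3′UTR was 8721 nt long. The other 12 sites of this cluster had 48 to 230 deletions at bases covered by up to 42864 tags. At the representative end itself, 14 nt away, SSR1 had 70 deletions in 3339 tags. The tags of SSR1 were thus deepest at the internal end.

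SEC62, a translocon partner in post-translational import, had its 16 sites in 10 clusters, all in a 3′UTR of some transcript. The strongest had 212 deletions in 9239 tags (2.29%), 4225 nt upstream of the nearest annotated end, with AATAAA 5 nt after the deleted base. Of the 8 clusters in the 3′UTR of its representative transcript, 7 held AATAAA within 25 nt of the deletion. At the other TRAP subunits, SSR3 had 529 deletions in 18942 tags 602 nt from an end, while SSR4 had 94 and SSR2 72, at 27 nt and 0 nt from an end. The signal peptidase subunits SPCS3 and SPCS1 had 569 deletions in 29643 tags and 347 in 22714 tags, 22 nt and 21 nt from an end, and SPCS2 had 83. The channel subunit SEC61A1 had 434 deletions in 13340 tags 7 nt from an end, and SEC61B had 84. SEC63 had 160, and SERP1, which protects nascent membrane proteins at the translocon, had 54, 561 nt from an end.

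Among 6 genes of ER-associated degradation, 5 had a 3′UTR site. HERPUD1, a membrane component of the HRD1 ligase complex that is strongly induced by ER stress, led with 628 deletions in 11339 tags (5.54%) 15 nt from an annotated end, and AATAAA began 7 nt before the deleted base. DERL1 had 378 deletions in 8019 tags 213 nt from an end, SEL1L, the adaptor of HRD1, 173 in 5475 tags 1426 nt from an end, and EDEM1, a mannosidase-like protein, 154 in 3864 tags 26 nt from an end. DERL2 had 100. OS9, a lectin that brings glycoproteins to HRD1, had the intronic site with 23 deletions in 48 tags (47.9%, Wilson interval 34.5 to 61.7%), and is the only gene of the 48 whose every site was of that high percentage. The transcription factors of the unfolded protein response were close to each other, with 171 deletions in 4296 tags for XBP1, 8 nt from an end, and 169 in 4627 tags for ATF6, 21 nt from an end.

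The KDEL receptors return ER proteins from the Golgi, and they were unlike each other. KDELR2 had 27 sites in 5 clusters, KDELR1 had 7 in 1 cluster and KDELR3 had 0. The strongest KDELR2 site had 714 deletions in 33446 tags (2.13%), 7 nt from an annotated end that lies 673 nt inside the 3′UTR, and its cluster of 10 sites held 1921 deletions. The 11 sites at the outer end held 1782 deletions, led by 434 in 33631 tags (1.29%) 7 nt from that end. A further cluster 1650 nt upstream of the outer end had 221 deletions in 26079 tags. Both ends of KDELR2 were thus covered to a like depth, unlike those of SSR1. All 27 KDELR2 sites also lie in an intron of DAGLB, annotated on the same strand, and were counted for KDELR2 because they are exonic there. KDELR1 had 181 deletions in 9989 tags, 16 nt from its end.

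**Figure D2:**
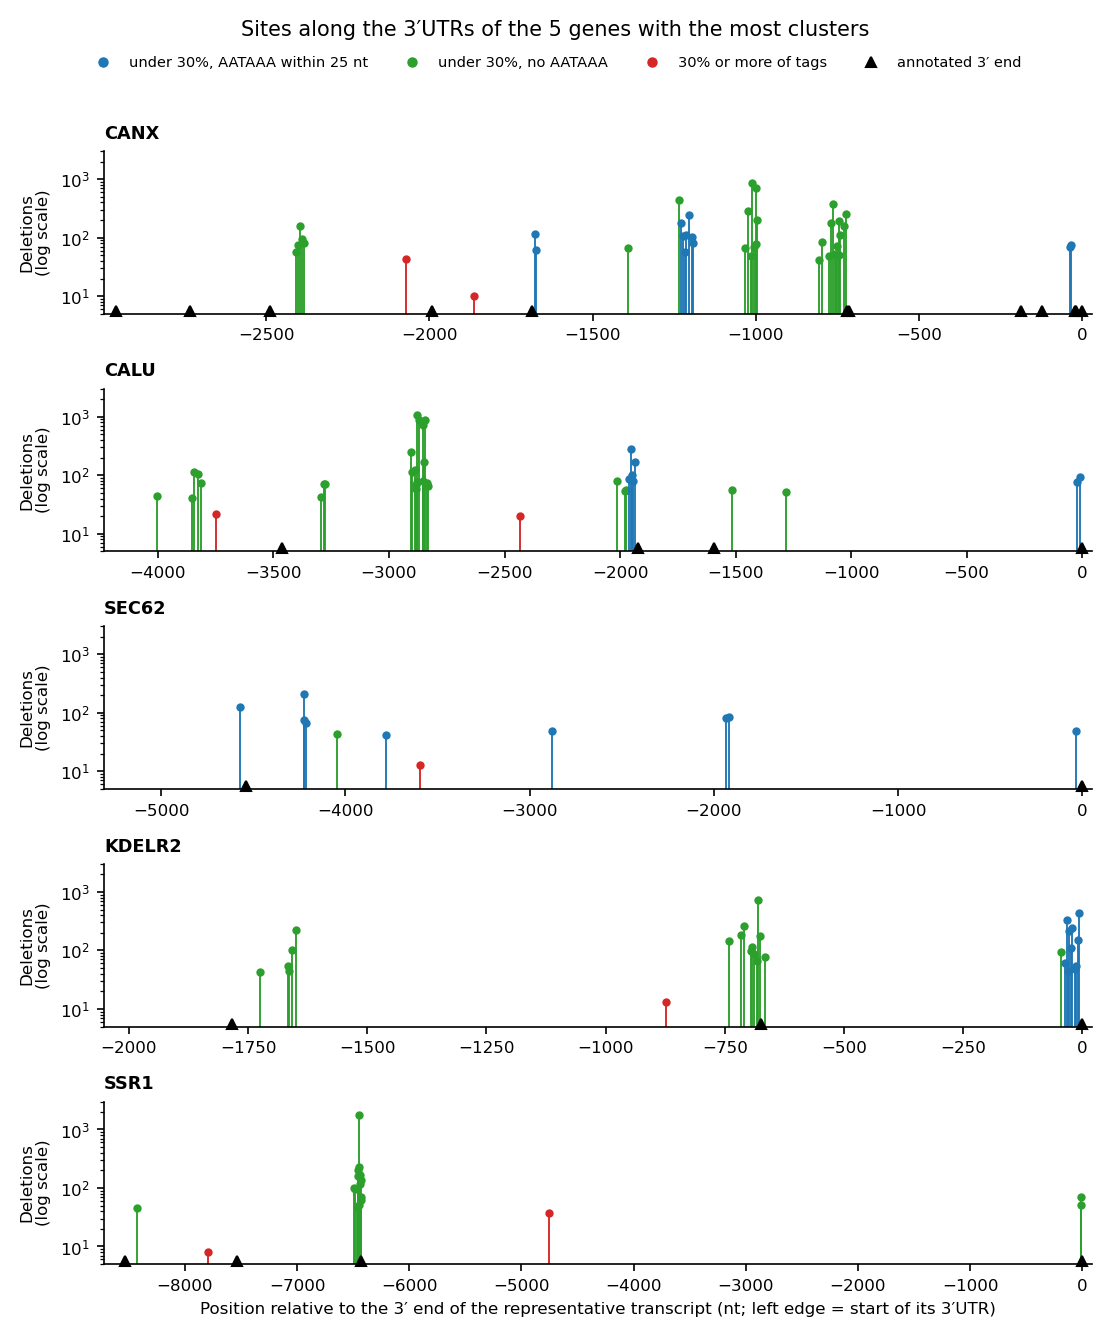
Number of tags with the deletion (log scale) at each site in the 3′UTR of the representative transcript of CANX, CALU, SEC62, KDELR2 and SSR1, against the position relative to the transcript's 3′ end in nt, with annotated 3′ ends as triangles. CANX and CALU have their highest sites away from the outer end, KDELR2 has high sites at 2 ends, and SSR1 has its highest site at an end 6427 nt inside the 3′UTR; sites coding in the representative transcript are not drawn.

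The clusters at the outer ends of these 5 genes are shown for comparison with the strongest sites above, with AATAAA or ATTAAA in capitals where the window held one and otherwise the deleted base. These clusters were picked after their values were seen.
CANX: ttgttttctcttgattttaaAATAAAacc
CALU: tttcAATAAAatgctttcattcatcctgt
SEC62: tgatagattatatcttactcctaAATAAA
KDELR2: ataaaggttaccagGtaattaatattttt
SSR1: cccttaaATTAAAgctgatcatgaaagta

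These windows were chr5:179731594-179731622 for CANX, chr7:128773378-128773406 for CALU, chr3:169998324-169998352 for SEC62, chr7:6461082-6461110 for KDELR2 and chr6:7281143-7281171 for SSR1, on the strands given above. The KDELR2 cluster had an AATAAA that starts 15 nt before the deleted base, of which the window shows the last 5 bases. AATAAA or ATTAAA therefore stood near the deletion at all 5 outer ends, whereas the strongest sites of CANX, CALU and SSR1 had neither in their windows. Other variants of the poly(A) signal were not searched for, so these windows are not shown to lack one.

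Over all 343 3′UTR sites of the ER genes, the median distance to the nearest annotated end downstream was 42 nt (95% order-statistic interval 34 to 65 nt), against 34 nt over all 21222 3′UTR sites. Within 100 nt of an end lay 202 of the 343 (58.9%, 53.6 to 64.0%), against 69.3% of all. Counted by cluster it was 51 of 114 (44.7%, 35.9 to 53.9%), against 59.1% of 9974. With only the strongest 3′UTR site of each gene it was 30 of 44 (68.2%), a share not computed over all genes. CANX and CALU alone gave 42 and 36 of the 343 sites. Sites of 1 cluster and clusters of 1 gene are not independent, so these differences were not tested. By gene, 39 had at least 1 3′UTR site within 100 nt of an annotated end and 31 had 1 within 100 nt of the end of the representative transcript. The strongest site lay within 100 nt of an end in 30 of the 45 genes with a site. These counts by gene were not made over all genes and describe the ER genes alone. The 5 with 3′UTR sites but none within 100 nt of an end were ERP44, DNAJC10, RCN1, SERP1 and SEL1L. No site lay in the 1000 nt downstream of an annotated gene end. Distances depend on the transcripts that are annotated, since CANX and KDELR2 have 13 and 6 annotated 3′ ends and P4HB has 42, and with the representative transcript alone the share within 100 nt was 35.2%.

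**Figure D3:**
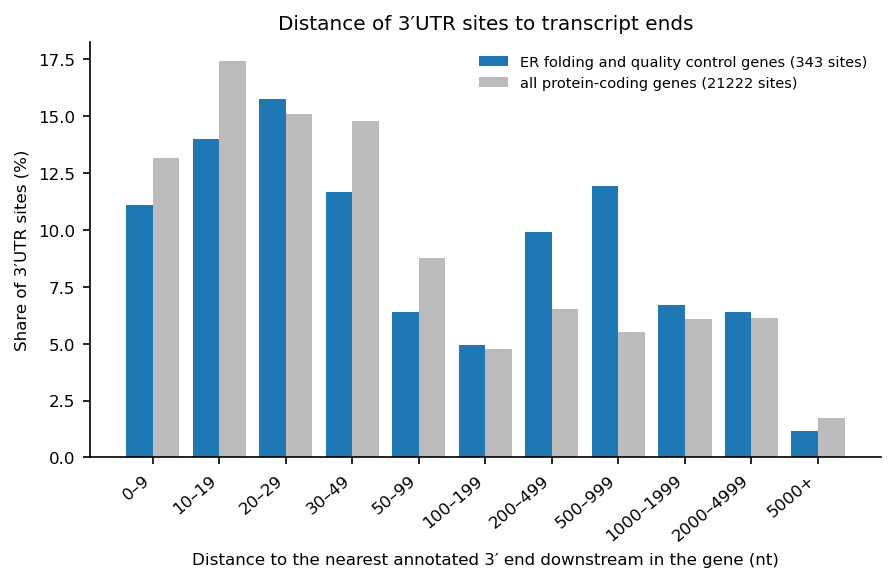
Share of 3′UTR sites in percent (bars) by the distance in nt to the nearest annotated 3′ end downstream, for 343 sites of the ER genes and 21222 sites of all protein-coding genes; bins are unequal in width. The ER genes have 12% of their sites (41) from 500 up to 1000 nt, where all genes have 5.53%, and 14% from 10 up to 20 nt, where all genes have 17.4%. The 14 sites of the strongest CALU cluster are among those 41.

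Sites of 2 kinds were present. In 322 of the 354 (91.0%) fewer than 30% of the tags carried the deletion, against 75.6% of the sites in all genes, and 32 sites had 30% or more. Over all 354 sites the median deletion percentage was 1.19% (0.983 to 1.56%), against 2.49%. With 1 site per cluster it was 3.64% (3.08 to 4.20%), against 9.65%. Over only the clusters whose representative was under 30%, it was 2.87% (2.51 to 3.25%), against 3.27% (3.20 to 3.33%). The 94 clusters whose representative was under 30% had a median of 4602.5 tags and 113 deletions, whereas the 31 clusters at 30% or more had a median of 22 tags and 15 deletions. With no control library, whether deletions in most of so few tags came from crosslinking was not tested. Clusters at 30% or more were 24.8% (18.1 to 33.0%) of those in the ER genes, against 44.4% in all genes. Of the clusters under 30%, 1 of 94 (1.06%) lay in an intron, against 1.99% in all genes. Of those at 30% or more, 6 of 31 (19.4%, 9.19 to 36.3%) did, against 44%. The intronic cluster under 30% was counted for TXNDC12, with 58 deletions in 1420 tags (4.08%) and AATAAA 12 nt before the deleted base, but it also lies in the 3′UTR of KTI12, a gene on the same strand, 11 nt from an annotated end of KTI12. The list does not tell which transcript its tags came from. Sites at 30% or more were found in 19 genes, with 3 each in CANX, SSR1, DNAJC10, ERP44 and RCN1. This gene count was not made over all genes.

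**Figure D4:**
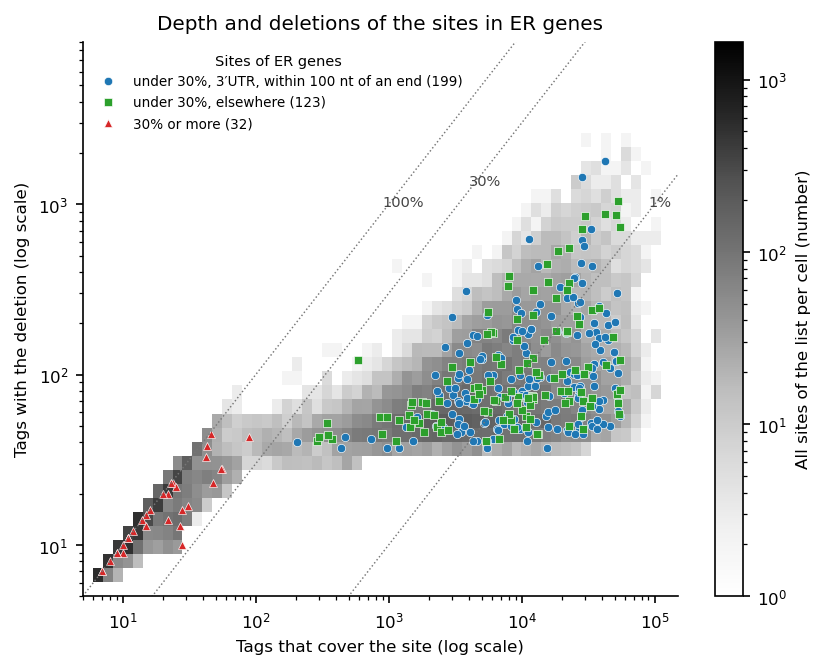
Tags that cover a site against tags with the deletion, both on log scales, for the 354 sites of the ER genes (coloured) over the density of all sites in the list (grey); dotted lines mark deletion percentages of 1%, 30% and 100%. The 32 sites at 30% or more lie at low depth, and the 322 others reach 55257 tags.

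Of the 125 clusters, 47 (37.6%, Wilson interval 29.6 to 46.3%) had AATAAA on the transcript strand within 25 nt on either side of the deleted base, against 39.9% of all 13597 clusters. Among the 51 clusters within 100 nt of an end the share was 58.8% (45.2 to 71.2%), against 61.2%, and with ATTAAA counted as well it was 78.4%, against 75.5%. Among the 44 clusters under 30% that lay over 100 nt from an end it was 25% (14.6 to 39.4%), against 45.8% (43.6 to 47.9%) of 2013. These 11 of 44 clusters lay in 8 genes, 4 of them in SEC62. The study's AUA motif has ATA at its centre, preceded by A or T and before it any base but C, and followed by A or T and then A. It was found in 36.8% of the clusters (28.9 to 45.5%), against 41.7% of all. The 7 letters of this motif can contain AATAAA, and counted only where they did not, it was found in 12 of 125 (9.6%, 5.58 to 16.0%), against 13.4%. The shares over all clusters lay within the counting intervals of the ER genes for AATAAA and for the AUA motif in both forms, but these pool clusters of both kinds. Among the 94 clusters under 30%, AATAAA was found in 44.7% (35.0 to 54.7%), against 59.3% in all genes. AATAAA or ATTAAA was found in 63.8% (53.8 to 72.8%) of them, against 74.9%. Clusters of 1 gene are not independent, and CANX and CALU alone had 11 and 10 of the 125 clusters, so these differences were not tested. The deleted base was T in 95 of 125 clusters (76.0%, 67.8 to 82.6%), against 70.0% of all, C in 12, A in 11 and G in 7. A deletion within a run of 1 base has no certain position, and at the 22 clusters whose deleted base differs from both neighbours it was T in 10 (45.5%, 26.9 to 65.3%), against 31.7% of 2047.

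Among 3′UTR clusters over 100 nt from an end, runs of A downstream were found at a like share in the ER genes and in all genes. Of the 63 3′UTR clusters over 100 nt from an end, 11 (17.5%) had a run of 6 or more A within 100 nt downstream, against 17.3% of all such clusters. Those with 8 or more were 4 of 63 (6.35%), against 7.87%. Of these 4 clusters, 3 were in CALU, with runs of 8, 13 and 15 A, and 1 in DNAJC3. Priming on runs of A, as part of these sites, was not tested beyond these counts.

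A few clusters lay in sequence that codes for protein in the representative transcript and is 3′UTR only in another annotated transcript. They held 9 of the 343 3′UTR sites, in HSP90B1, CANX, SEC62 and HERPUD1, against 268 of 21222 over all genes. The windows of the 4 such clusters under 30% are shown because 3 of the 4 consist mostly of A and G. They were picked after their values were seen, and the deleted base is in capitals.
HSP90B1: gcagccaaagaagaGaaagaagaatctga
CANX: gaggaagaagagaaGgaagaggaaaagga
SEC62 upstream: ttttaaagaagcagTtttttcaccgagcc
SEC62 downstream: ggaaaagaagaagaTaaaaagagcaagaa

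They lay at chr12:103938376-103938404, chr5:179724717-179724745, chr3:169982709-169982737 and chr3:169982807-169982835, all on the plus strand. Their strongest sites had 99 deletions in 13595 tags (0.728%), 54 in 8376 (0.645%), 72 in 4391 (1.64%) and 118 in 16771 (0.704%). The 50 nt downstream of the deletions held a median of 50% A over the 4 clusters, against 44% over the 106 such clusters of all genes. At 3′UTR clusters that were under 30% and over 100 nt from an end, it was 28% over the 44 of the ER genes, against 34% over the 2013 of all genes. The downstream SEC62 cluster had a run of 9 A within 100 nt. Whether this RNA was primed at its internal A was not tested.

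Longer 3′UTRs tended to hold more clusters. Over the 44 genes with a 3′UTR site, Spearman's rho between the annotated 3′UTR length and the number of 3′UTR clusters was 0.48, against 0.30 over 6371 genes. This is a description across genes, which share the pooled libraries. There were exceptions in both directions, since UGGT1 had 10800 nt and 2 clusters, ATF6 had 11836 nt and 2 clusters, and CALU had 4306 nt and 10 clusters.

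Of 108 other ER genes of folding, glycosylation, targeting, degradation and stress signalling, 78 (72.2%) had a site and 76 (70.4%) a 3′UTR site. The shares were 37.6% and 31.8% over all protein-coding genes, and 93.8% and 91.7% in the 48 genes. This list too was chosen with earlier results of these data known, so the shares test nothing. By group, genes with a site were 16 of 26 of folding and redox, 17 of 19 of glycan processing and the oligosaccharyltransferase, 15 of 24 of targeting and membrane insertion, 17 of 22 of degradation and 13 of 17 of stress signalling and ER-phagy. The leading genes of the 108 were TMBIM6, a suppressor of ER stress-induced cell death, with 1992 deletions in 72510 tags 32 nt from an end, and TRAM1, a translocon-associated membrane protein, with 1936 in 40307 tags 10 nt from an end. TMX1, a membrane thioredoxin, followed with 1270 in 26431 tags 1630 nt from an end. OSTC, a subunit of the oligosaccharyltransferase, had 955 and FAF2, which recruits VCP in degradation, had 911. The 3′UTR sites of these 108 genes lay within 100 nt of an end in 77.5% (72.9 to 81.5%) of cases, against 58.9% in the 48 genes. CANX and CALU alone gave 42 and 36 of the 343 sites of the 48 genes, and sites of 1 cluster share their tags, so this difference was not tested.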

How the data were processed

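RBMS3 CLIP-seq was analysed from 2 biological replicates of 1 group. Per the labels and the study's methods, cells were irradiated at 254 nm and 400 mJ/cm2, RNA was trimmed by RNase, the FLAG-tagged protein was recovered on beads, and RNA was poly(A)-tailed, captured with oligo(dT) and reverse transcribed with molecular identifiers. RNA with a poly(A) tail of its own can be captured likewise. The authors processed reads with the CLIP Tool Kit on hg38 and called crosslinking-induced deletion sites on unique tags of both replicates pooled, at a false discovery rate under 10% and a fold over 10 that is not defined further. Versions are not given in the sources used here. The deposited values are counts per site, the tags that cover it and the tags with the deletion, not normalized. The lowest count of deletions was 7, and total depth per replicate was not analysed here.

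All intervals were 21 nt long and the deleted base was taken as their centre. Sites were assigned by strand to GENCODE release 44 genes with Python 3.11.15, numpy 2.4.6 and scipy 1.17.1, a 3′UTR in any transcript taking precedence over a 5′UTR, then over other exons and last over introns. The representative transcript is 1 per gene by the annotation's tags. Clusters joined sites within 50 nt, motifs were searched on the transcript strand within 25 nt on each side, and intervals are 95% Wilson or order-statistic intervals that cover counting error only. No test was run, since the list pools the replicates. The steps were tested on simulated sites. All 48 genes are named, with fuller values for the 5 with the most 3′UTR clusters, the 5 with the most deletions, the leading gene of each role and any gene whose strongest site had a high percentage, plus the leading other ER genes. Members and lists were chosen with earlier results of these data known. Alternatives changed the minimum of deletions and of percentage, overlap, annotation, cluster distance, window and unit.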

Additional observations from a re-analysis of the deposited data

How the results depend on the processing

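No paired analysis was possible because the list pools both replicates of a single group, and for that reason no replicate could be left out. Of 101 alternatives, 65 left the value within its limits and 36 moved it. They were run on the ER genes' own values, and the comparison with all genes was not repeated under each. The limits were wide, since joining sites within 10 nt gave 178 clusters instead of 125 and counted as within them. A floor of 10% on the deletion percentage moved the most. It left 20 ER genes with a site, 18 with a 3′UTR site, 34 other ER genes, 39 sites and 39 clusters, with a median percentage of 88.4%, 74.4% in the 3′UTR, a median distance of 597 nt, 13.8% within 100 nt of an end, AATAAA at 15.4%, the AUA motif at 20.5% and apart from AATAAA at 5.13%. At least 50 deletions left 81 clusters, AATAAA at 46.9%, 99.6% in the 3′UTR and 100% under 30%. At least 20 deletions gave 98.5% in the 3′UTR and 96.4% under 30%, and sites under 30% alone gave 99.7% in the 3′UTR. The representative transcript alone gave 93.8% in the 3′UTR, a median distance of 755.5 nt and 35.2% within 100 nt. With 1 site per cluster, the median percentage was 3.64%, the median distance 198.5 nt, the share within 100 nt 44.7% and the share under 30% 75.2%. With 1 site per gene, the distance was 26 nt, the share within 100 nt 68.2% and AATAAA 51.1%. A limit of 50 nt gave 52.8%, and ATTAAA added to AATAAA gave 52.8% of clusters. Windows of 10 nt gave AATAAA at 16% and the AUA motif at 14.4%, and windows of 50 nt gave the AUA motif apart from AATAAA at 17.6%. The deleted base was T at 64.7% of all sites and at 45.5% of the 22 clusters whose deleted base differs from both neighbours. Depth limits what absence means, since a gene with few tags cannot reach the lowest count of deletions in the list.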
